A study of Mus musculus with 22 samples.

Results

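γH2AX was compared between testes of mice that received the same Robertsonian translocation from the mother (1Rb_M) or from the father (1Rb_P). The comparison rests on 6 ChIP-seq libraries out of 22 in the series, 3 per cross, chosen by their titles. 1Rb_M mice are F1 offspring of a CBy.RBF-Rb(8.12)5Bnr/J mother and a B6.SPRET7MOLF12 father. 1Rb_P mice are F1 offspring of a C57BL/6J mother and a CBy.RBF-Rb(8.12)5Bnr/J father. Both crosses are heterozygous for the translocation joining chromosomes 8 and 12, and all 6 libraries came from whole testis at 4 weeks, with the JBW301 antibody to phosphorylated H2AX.

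The crosses differ in more than the direction of transmission. The free homologues of 8 and 12 come from B6.SPRET7MOLF12 in 1Rb_M, a strain whose name refers to segments of 7 and 12, and from C57BL/6J in 1Rb_P. The X chromosome comes from the translocation strain in 1Rb_M and from C57BL/6J in 1Rb_P, and the Y from B6.SPRET7MOLF12 in 1Rb_M and from the translocation strain in 1Rb_P. Parental direction and strain background therefore cannot be told apart. The labels number the replicates without saying that each is a separate animal, so the p-values measure the spread between these samples, which may be technical.

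γH2AX is the form of histone H2AX phosphorylated around DNA double-strand breaks. In meiotic prophase it first spreads over the genome when SPO11 makes programmed breaks. At pachytene it persists on chromatin that has failed to synapse, above all on the X and Y in the sex body, where ATR kinase, TOPBP1 and MDC1 propagate the mark and transcription is silenced. In carriers of a Robertsonian translocation, the joined chromosome pairs with 2 free homologues, and the regions next to the centromeres are where synapsis is often delayed.

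The 1Rb_M libraries held 45527545, 50627449 and 52775888 counts, and the 1Rb_P libraries 46010078, 47641584 and 49640148, so counting error at the median 50 kb window was 3.58 to 3.97%. Depth did not separate the crosses. 1Rb_M replicate 3 stood apart from its group. It gave 18.9% of its counts to X, against 12.3% in each of 1Rb_M replicates 1 and 2 and 18.4, 17.9 and 17.7% in the 1Rb_P libraries. Its chi-square per degree of freedom over windows was 28.1 and 34.6 against its own group and 5.57 to 9.43 against 1Rb_P. Replicates 1 and 2 of 1Rb_M had 2.76 between them, and the 1Rb_P pairs 1.95 to 2.57, so no library was a copy of another. In whole testis, fewer cells of a marked stage and less mark per cell cannot be told apart. Window counts are given as CPM (per 1000000 counts of a library), scaled by edgeR's trimmed mean of M-values (TMM), which put the median autosomal difference at −0.0003 on the log2 scale. Because 1Rb_M replicates 1 and 2 gave fewer counts to X and Y, scaling by library totals instead put that median at 0.10. The 3 inputs are titled 1Rb_M, Cg (B6.SPRET7MOLF12 without a translocation) and B6. The strain given for the first is that of the 1Rb_P cross, and it is named here by its title. The Cg input came from mice of 6 weeks, the inputs titled 1Rb_M and B6 from mice of 4 weeks, and the pooled input holds all 3.

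On autosomes γH2AX differed between the crosses in few windows and mostly by small amounts. Of 48016 autosomal windows tested, 809 passed at an adjusted p under 0.05 (1.68%; edgeR quasi-likelihood test, adjusted over all 53118 windows). γH2AX was higher in 1Rb_M in 128 of them (0.267%) and lower in 681 (1.42%). The median called difference was 0.26 on the log2 scale, or 1.20-fold, for the higher windows and −0.26, or 0.83-fold, for the lower ones. In only 24 called autosomal windows did it exceed 0.5 in either direction. At an unadjusted p under 0.05 there were 7627 autosomal windows. The 3 1Rb_M libraries lay above all 3 1Rb_P libraries in 4741 autosomal windows (9.87%) and below them in 4749 (9.89%). The 2 groups overlapped in 37 of the called windows.

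The split by direction depended on the scaling and on single libraries. With library totals, 169 autosomal windows were higher and 27 lower in 1Rb_M, so that the lower share of the calls was 13.8%, against 84.2% with TMM. Without 1Rb_M replicate 3 the calls were 4572 higher and 2360 lower, and without 1Rb_M replicate 1 they were 8 higher and 35 lower. Under none of the 13 alternative settings was a window called here called in the other direction.

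The lower windows were gathered on a few chromosomes. Chromosomes 14 and 16 held 136 each, 5.59% and 7.15% of their windows, and chromosome 12 held 93, or 3.97%. Chromosome 2 held 63, 3 held 61, 13 held 57 and 10 held 43. Chromosomes 7 and 11 had no lower window, and 19 had no call in either direction. Chromosome 7 was the reverse of 14 and 16: it held 30 of the 128 higher windows, 1.05% of its own, and its median difference was 0.06. Chromosome 8, the other partner of the translocation, had 3 higher and 15 lower windows, 0.714% of those tested.

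**Figure D1:**
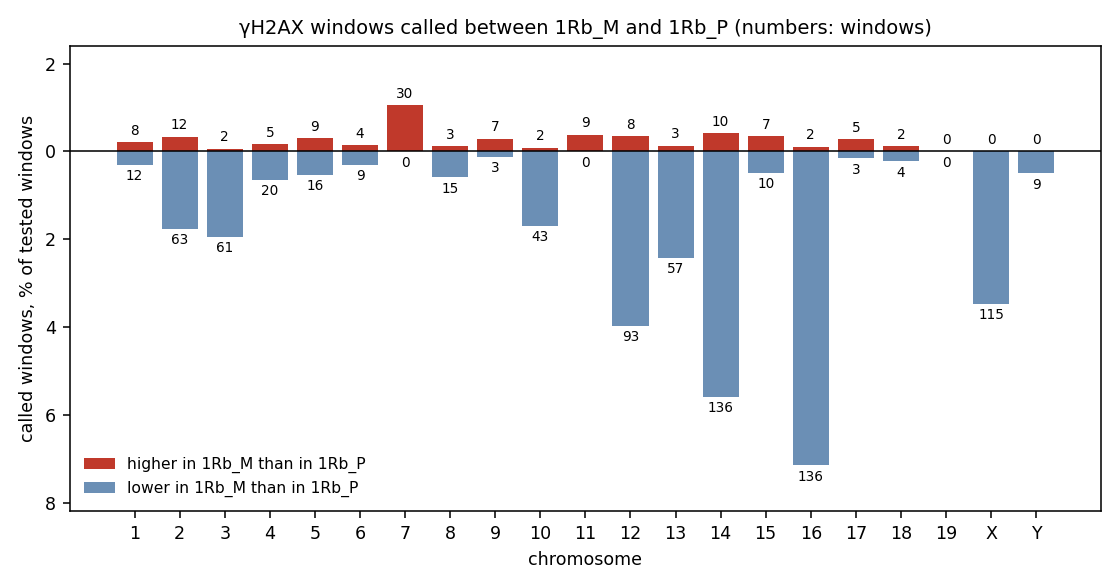
Called windows per chromosome as a percentage of the windows tested, higher in 1Rb_M above the line and lower in 1Rb_M below it, with the number of windows at each bar (edgeR, TMM). Chromosomes 14 and 16 carry 136 lower windows each, chromosome 7 carries 30 higher and no lower ones, and X carries 115 lower ones.

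Summed over whole chromosomes, no difference passed. edgeR called 0 of 21 chromosomes (0.00%), with 3 at an unadjusted p under 0.05. Chromosome 7 took 4.03, 3.96 and 3.83% of scaled counts in the 1Rb_M libraries and 3.81, 3.78 and 3.77% in the 1Rb_P libraries, a log2 difference of 0.06 ± 0.02 (SE; edgeR adjusted p = 0.231). Chromosome 16 took 2.86, 2.90 and 2.92% in 1Rb_M and 2.95, 3.04 and 3.03% in 1Rb_P, a difference of −0.06 ± 0.02 (edgeR adjusted p = 0.142). For each of these 2 chromosomes the groups did not overlap, as was also so for 18, where 1Rb_M was below. Chromosome 12 took 3.80, 3.78 and 4.12% in 1Rb_M and 4.09, 4.14 and 4.13% in 1Rb_P (log2 difference −0.08 ± 0.03, edgeR adjusted p = 0.278). There 1Rb_M replicate 3 fell among the 1Rb_P libraries. Without 1Rb_M replicate 3, edgeR called 12 of the 21 chromosomes, with 7 at 0.10 (adjusted p = 0.000294) and 12 at −0.10 (adjusted p = 0.000142).

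The called windows lay at opposite ends of the autosomal landscape. Enrichment here is the log2 of a library's share of counts in a window over that of the 3 inputs pooled. The 681 windows lower in 1Rb_M had a median enrichment of 0.09, 0.18 and 0.08 in the 1Rb_M libraries and 0.33, 0.39 and 0.40 in the 1Rb_P libraries. The 3Rb libraries came from carriers with further translocations at 4 weeks, of a cross with B6.SPRET7MOLF12 as a parent. They had 0.34, 0.31 and 0.28 in these windows, and the single library of normal B6 mice, also of 4 weeks, had 0.39. The 128 windows higher in 1Rb_M had −0.02, −0.11 and −0.04 in 1Rb_M and −0.30, −0.32 and −0.36 in 1Rb_P, with −0.38 to −0.43 in 3Rb and −0.24 in B6. In both sets the 1Rb_M libraries were thus nearer to 0 than the 1Rb_P libraries, which the choice of the windows itself favours, and the 3Rb and B6 libraries, which had no part in that choice, lay on the side of 1Rb_P. H3.3, the replacement histone of transcribed chromatin, ran the other way in 1Rb testes of the 1Rb_M cross at 6 weeks: its enrichment was −0.187 to −0.305 in the lower windows and 0.14 to 0.23 in the higher ones. It did so too in Cg testes, which carry no translocation, with −0.215 to −0.321 in the lower windows and 0.14 to 0.28 in the higher ones.

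Ordering the windows by a measure outside the comparison gave the same picture. Autosomal windows without unusual input were divided into quintiles by their mean enrichment in the 3 3Rb libraries. In the highest quintile, the median enrichment centred per library was 0.13, 0.16 and 0.17 in 1Rb_M and 0.22, 0.26 and 0.27 in 1Rb_P, against 0.21 in B6. In the lowest quintile it was −0.09, −0.17 and −0.10 in 1Rb_M and −0.18, −0.21 and −0.25 in 1Rb_P, against −0.18 in B6. The groups did not overlap at either end, and 1Rb_M replicate 3, which stood with 1Rb_P on X, stood with its own group here. The spread of enrichment over these windows did not separate the groups, since its SD on the log2 scale was 0.143, 0.162 and 0.238 in 1Rb_M and 0.218, 0.241 and 0.242 in 1Rb_P. By that measure 1Rb_M replicate 3 fell among the 1Rb_P libraries. The highest quintile held 445 lower and 2 higher windows, 4.64% and 0.0208% of its 9593. The lowest quintile held 11 lower and 97 higher windows, 0.115% and 1.01% of its 9593. The median log2 difference was −0.09 in the highest quintile and 0.09 in the lowest.

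**Figure D2:**
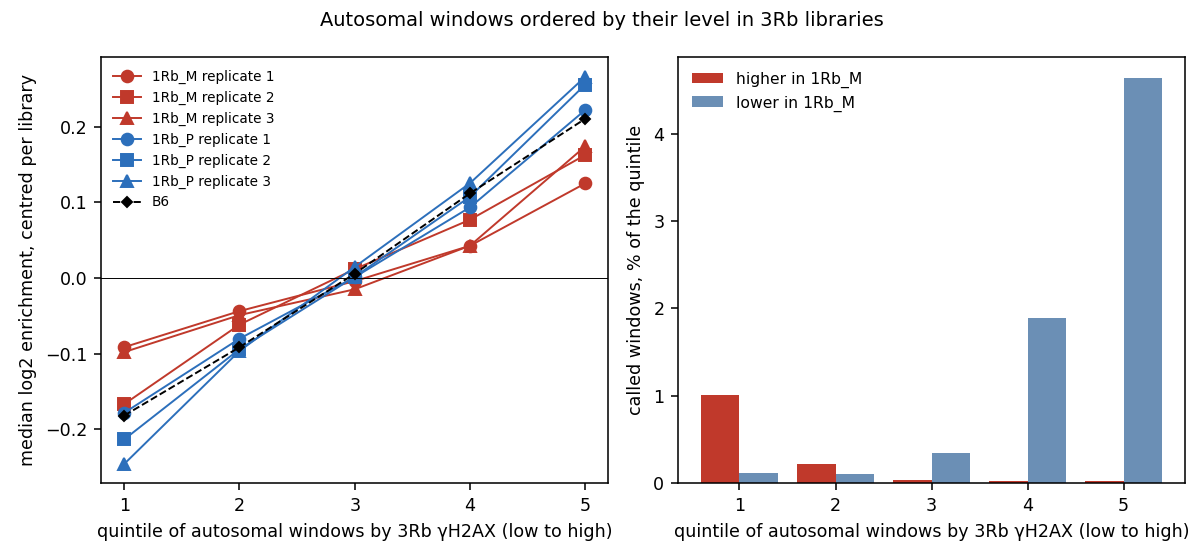
Left, median log2 enrichment over input, centred per library, of autosomal windows in quintiles of rising 3Rb γH2AX, 1 line per 1Rb_M or 1Rb_P library and a dashed line for B6. Right, the percentage of each quintile called higher or lower in 1Rb_M. The 1Rb_M lines are flatter than the 1Rb_P lines, 0.13 to 0.17 against 0.22 to 0.27 in the highest quintile, and the lower windows gather in that quintile (4.64%).

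The windows lower in 1Rb_M were poor in genes. Of them, 60.6% overlapped no protein-coding gene, against 41.8% of all autosomal windows tested, and 0.734% overlapped 3 or more, against 5.62%. Lower calls made up 2.06% of windows without a gene, 1.04% of those with 1 or 2 genes and 0.185% of those with 3 or more. For the higher windows these shares were 0.244, 0.281 and 0.296%. The 113 promoters in the lower windows had a median G+C content of 46.8%, the 132 in the higher windows 52.8%, and all 31396 autosomal promoters 52.4%. The inputs differed in the same windows: the input titled 1Rb_M stood at a log2 of 0.08 over the B6 input in the lower windows and at −0.08 in the higher ones, against 0.0004 over all. The Cg input stood at 0.11 and −0.14 over the B6 input, and at 0.04 and −0.04 over the input titled 1Rb_M. It was thus the B6 input, the shallowest with 11876426 counts, that lay apart from both others. The part of input differences in these calls was not tested.

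Most regions of calls were single windows, and those longer than 3 windows were all of lower calls. Merged across gaps of at most 1 window, the lower calls of all chromosomes made 387 regions, of which 269 were single windows. The higher calls made 117 regions, 108 of them single windows and none longer than 3. In 1 Mb bins all 1Rb_M libraries lay above all 1Rb_P libraries in 394 of 2413 autosomal bins (16.3%) and below them in 322 (13.3%). The longest unbroken runs below were of 19 Mb on 16, from 59 to 78 Mb, 17 Mb on 12, from 34 to 51 Mb, and 15 Mb on 14, from 88 to 103 Mb. The longest run above was of 12 Mb on 13, from 37 to 49 Mb, followed by 7 Mb each on 6 and 14. The run on 13 had 1 higher window of 240, with enrichment of −0.06, −0.08 and −0.07 in 1Rb_M and −0.15, −0.17 and −0.16 in 1Rb_P.

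The runs below were chosen for 1Rb_M lying under 1Rb_P, so the order of the groups and the direction of the calls in them are fixed by that choice. Over the run on 16, enrichment relative to windows beyond 13 Mb of the 16 autosomes other than 7, 8 and 12 was 0.17, 0.25 and 0.17 in 1Rb_M and 0.32, 0.39 and 0.38 in 1Rb_P. It was 0.38 in B6 and 0.23 to 0.27 in 3Rb. Of its 380 windows, 92 were called lower. On 14 the run stood at 0.22, 0.29 and 0.27 in 1Rb_M and 0.40, 0.48 and 0.47 in 1Rb_P, with 80 of 300 windows lower. B6 stood at 0.46 and 3Rb at 0.50 to 0.53 there. On 12 the run stood at 0.23, 0.27 and 0.30 in 1Rb_M and 0.43, 0.48 and 0.49 in 1Rb_P, with 67 of 340 windows lower. There B6, at 0.33, lay between the crosses, and 3Rb, at 0.55 to 0.58, above both. Of the windows of the 3 runs, 59.2 to 77.3% overlapped no protein-coding gene.

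**Figure D3:**
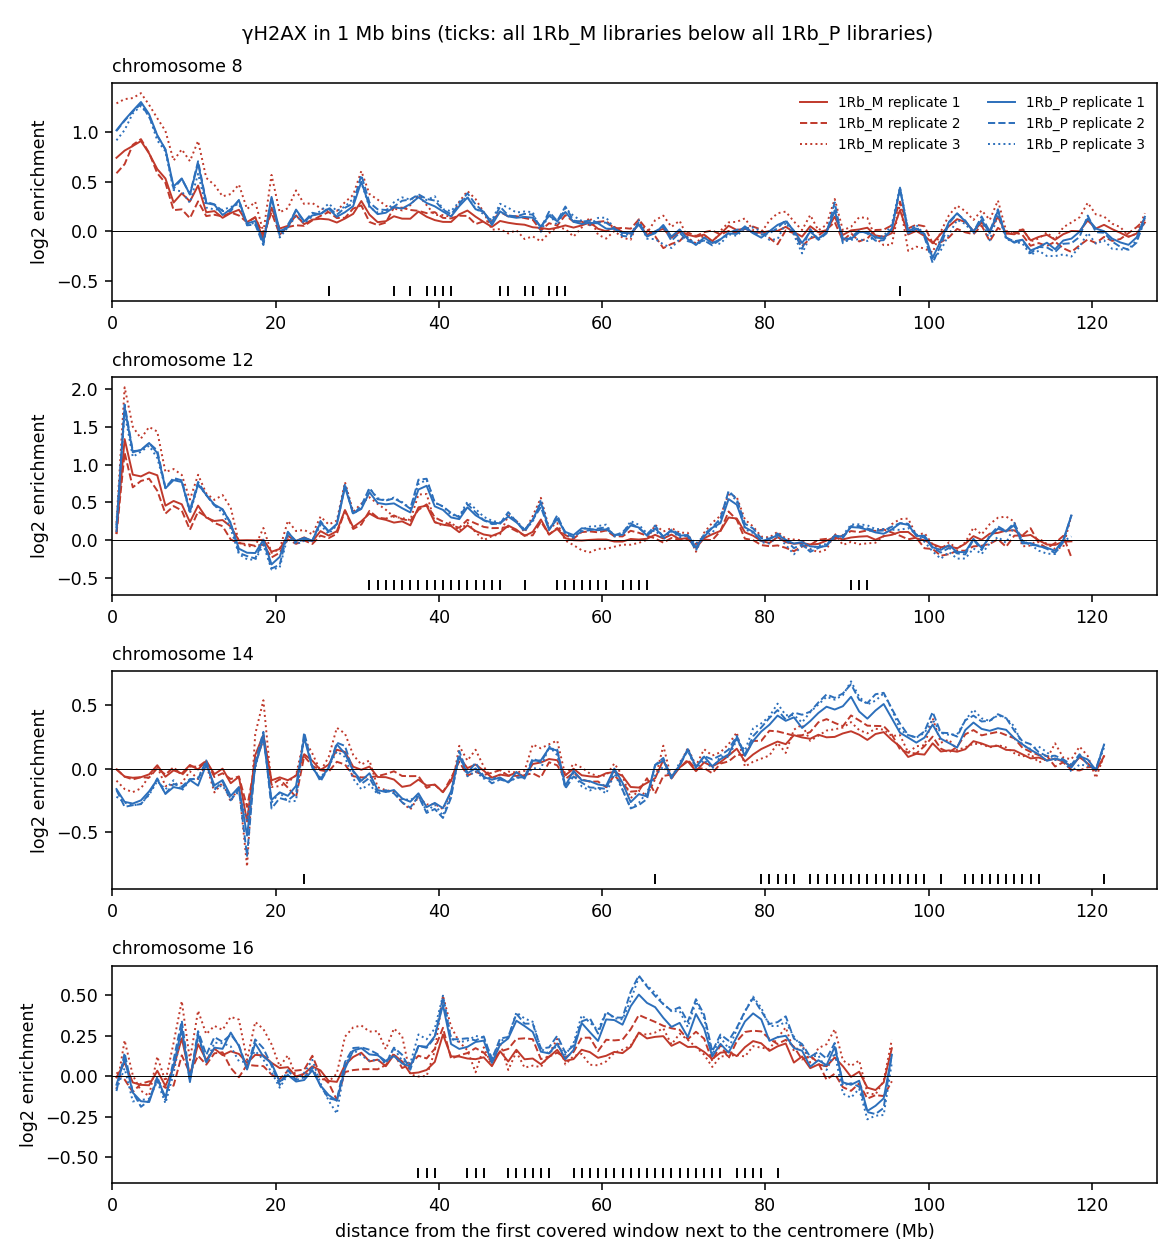
γH2AX enrichment over input (log2) in 1 Mb bins along chromosomes 8, 12, 14 and 16, against the distance from the first covered window next to the centromere, 1 line per library. Ticks mark bins in which all 1Rb_M libraries lie below all 1Rb_P libraries: they run unbroken over 17 Mb of 12, 15 Mb of 14 and 19 Mb of 16, and are missing over the enriched centromere end of 8 and 12, where 1Rb_M replicate 3 lies above the 1Rb_P lines and replicates 1 and 2 below.

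Long runs of lower windows on 16 included chr16:66800001-67650000 (mm10) over the cell adhesion gene Cadm2, with 14 lower windows and a median of −0.32. They also included chr16:63400001-64100000, with 13 and −0.28, which overlaps the ephrin receptor gene Epha3 in part. On 14, 11 lower windows covered chr14:92600001-93400000, with a median of −0.32. Some of these 11 overlapped the protocadherin gene Pcdh9 and some no protein-coding gene, as was also so for the Epha3 run. Cadm2, Epha3 and Pcdh9 are long genes with neuronal products.

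Next to the centromeres of 8 and 12, where the translocation lies, no window from 3 to 13 Mb passed. Enrichment of these first 10 covered Mb was taken relative to the same 16 autosomes. On 8 it was 0.63, 0.56 and 1.11 in the 1Rb_M libraries and 0.92, 0.91 and 0.86 in the 1Rb_P libraries. On 12 it was 0.54, 0.45 and 0.98 in 1Rb_M and 0.80, 0.79 and 0.78 in 1Rb_P. All 6 libraries were enriched at both ends, against −0.08 on 8 and −0.13 on 12 in B6, but 1Rb_M replicates 1 and 2 stood below every 1Rb_P library and replicate 3 above. The difference of the means was −0.13 on both (two-sided exact permutation p = 0.4 each; 3 against 3 libraries allow none under 0.1). Without 1Rb_M replicate 3 it was −0.30 on 8 and −0.29 on 12.

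The order of the libraries held with distance from the centromere end. From 3 to 8 Mb of chromosome 8, the log2 enrichment was 0.82, 0.77 and 1.33 in 1Rb_M and 1.17, 1.15 and 1.11 in 1Rb_P. From 8 to 13 Mb it was 0.43, 0.33 and 0.89 in 1Rb_M and 0.64, 0.64 and 0.58 in 1Rb_P. From 13 to 23 Mb it was 0.19, 0.15 and 0.43 in 1Rb_M and 0.24, 0.24 and 0.22 in 1Rb_P. The enrichment had thus declined in every library by 23 Mb, and 1Rb_M replicate 3 was the highest of the 6 in each band. On 12 the pattern changed farther out: from 33 to 43 Mb the values were 0.30, 0.32 and 0.43 in 1Rb_M and 0.52, 0.59 and 0.58 in 1Rb_P, without overlap, and 27 of 200 windows (13.5%) were lower in 1Rb_M. The rest of 12 beyond the proximal 10 Mb stood at 0.08, 0.07 and 0.16 in 1Rb_M and 0.17, 0.18 and 0.16 in 1Rb_P (exact permutation p = 0.2). The rest of 8 stood at 0.06, 0.04 and 0.15 in 1Rb_M and 0.08, 0.09 and 0.06 in 1Rb_P (exact permutation p = 1).

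The proximal 10 Mb of the other 17 autosomes showed the inverse order. They stood at −0.14, −0.10 and −0.27 in 1Rb_M and −0.20, −0.25 and −0.16 in 1Rb_P (exact permutation p = 0.6). The distal 5 Mb of all autosomes stood at 0.01, −0.04 and 0.04 in 1Rb_M and −0.02, −0.02 and −0.07 in 1Rb_P (exact permutation p = 0.3). In both regions the groups overlapped. Of the 9 regions compared, adjusted exact permutation p-values ran from 0.514 to 1.

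**Figure D4:**
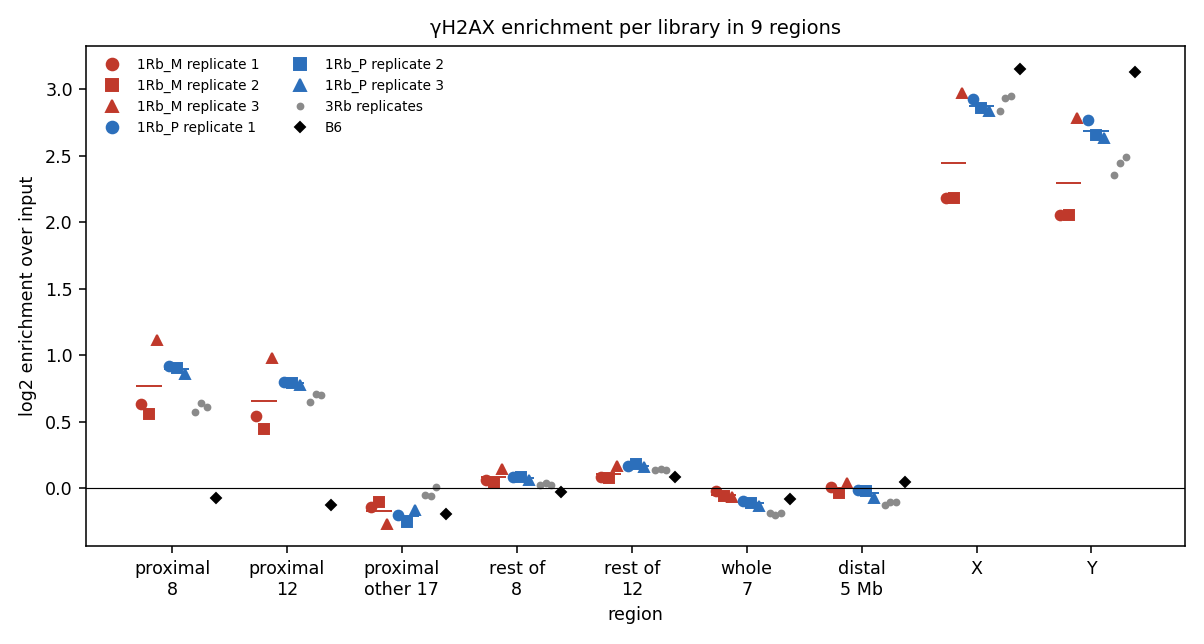
Log2 γH2AX enrichment over input, relative to the reference autosomes, in 9 regions, with 1 symbol per library and a line at the mean of 1Rb_M and of 1Rb_P; 3Rb and B6 libraries are shown for position. On proximal 8 and 12, X and Y, 1Rb_M replicate 3 lies above the 1Rb_P libraries and 1Rb_M replicates 1 and 2 below; on chromosome 7 all 3 1Rb_M libraries lie above.

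Chromosome 7 stood slightly higher in 1Rb_M along its length, while its calls gathered at the distal end. Its enrichment over the whole length was −0.02, −0.06 and −0.06 in 1Rb_M and −0.09, −0.12 and −0.13 in 1Rb_P, without overlap (difference 0.07, exact permutation p = 0.1, the smallest possible; adjusted p = 0.514). In bands along the chromosome the difference of the means was 0.04 to 0.08, with overlap of the groups in some bands. Of its 30 windows higher in 1Rb_M, 29 lay beyond 130 Mb, with 10 of 100 windows from 135 to 140 Mb and 17 of 107 from 140 to 146 Mb. In the last stretch the enrichment was 0.03, −0.12 and 0.11 in 1Rb_M and −0.09, −0.12 and −0.23 in 1Rb_P, so that 1Rb_M replicate 2 fell among the 1Rb_P libraries there. The inputs differed over the same stretch, at 0.03 in the one titled 1Rb_M, −0.08 in Cg and 0.14 in B6.

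The largest autosomal gain over a gene sat in this part of 7, at chr7:143600001-143700000. The first of its 2 windows overlaps Cars, the cysteinyl-tRNA synthetase gene, with Tnfrsf26 and Tnfrsf22, and the second Tnfrsf23 and Osbpl5; the Tnfrsf genes encode TNF receptor family members. The first window held 22.2, 21.4 and 21.9 CPM in 1Rb_M and 11.8, 13.01 and 11.9 CPM in 1Rb_P, a log2 difference of 0.83 ± 0.08 (SE; edgeR adjusted p = 5.22e-14). The second held 26.8, 25.9 and 27.9 CPM in 1Rb_M and 14.9, 14.02 and 12.7 CPM in 1Rb_P (0.95 ± 0.10, edgeR adjusted p = 4.43e-12). All 3 1Rb_M libraries lay together, far above 1Rb_P. The inputs, given throughout as CPM of their library totals, moved here as well: averaged over both windows, they held 33.6 (titled 1Rb_M), 44.1 (Cg) and 19.3 CPM (B6). So did H3.3, with 32.9, 36.98 and 34.4 CPM in 1Rb and 45.4 to 48.5 CPM in Cg. γH2AX in 3Rb, a cross with B6.SPRET7MOLF12 as a parent, held 22.7 to 23.3 CPM, and in B6 12.5 CPM.

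The other gains named by rule were smaller. Lrmda on 14, which encodes a leucine-rich repeat protein tied to melanocyte differentiation, had a window with 17.9, 16.8 and 15.6 CPM in 1Rb_M and 12.6, 12.03 and 12.3 CPM in 1Rb_P (0.45 ± 0.06, edgeR adjusted p = 4.86e-07). A further Lrmda window stood at 0.35 ± 0.06. Its first window held 22.7 CPM in the input titled 1Rb_M and 27.5 and 27.4 CPM in the Cg and B6 inputs. The title and the strain label of that input name different crosses, so no direction between the crosses can be read from it. The agouti gene a on 2, which encodes the melanocortin receptor antagonist that switches hair pigment, had 19.8, 18.4 and 23.9 CPM in 1Rb_M and 14.3, 14.5 and 13.8 CPM in 1Rb_P (0.54 ± 0.08, edgeR adjusted p = 4.83e-06). The 3Rb libraries held 67.2 to 73.8 CPM in that window and B6 13.9 CPM, while the 3 inputs held 18.9 to 19.4 CPM. The level in 1Rb_M thus lay between those of 1Rb_P and 3Rb, and the inputs were alike.

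Myo3a on 2, the gene of an unconventional myosin, had 21.2, 18.1 and 13.96 CPM in 1Rb_M and 12.3, 13.9 and 13.5 CPM in 1Rb_P (0.42 ± 0.08, edgeR adjusted p = 0.00027), with 1Rb_M replicate 3 just above the highest 1Rb_P library and inputs of 29.7 (titled 1Rb_M), 31.9 (Cg) and 40.6 CPM (B6). On distal 7, the window of B4galnt4, a glycosyltransferase gene, and Pkp3, a desmosomal plakophilin gene, stood at 0.30 ± 0.06. That of the gel-forming mucin genes Muc2 and Muc5ac stood at 0.31 ± 0.07. Zmiz1 on 14, a transcriptional coregulator gene, stood at 0.28 ± 0.06, the window of 2900026A02Rik and Tmem211 on 5 at 0.28 ± 0.06, and the sodium channel gene Scn8a on 15 at 0.26 ± 0.06 (edgeR adjusted p from 0.00289 to 0.0118 for these 5). That the groups lie apart in the named windows is a condition of the naming rule.

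The largest autosomal loss spanned chr14:25900001-26300000, with 8 lower windows. It holds 4 families of neighbouring copies: Plac9a and Plac9b, Tmem254a to Tmem254c, the homeobox genes Cphx1 to Cphx3 and Duxbl1 to Duxbl3. Over the stretch, the windows averaged 5.61, 5.44 and 5.95 CPM in 1Rb_M and 9.83, 9.73 and 9.57 CPM in 1Rb_P, and the median log2 difference was −0.81. Its first window, over Plac9a and Tmem254a, held 5.07, 5.09 and 5.10 CPM in 1Rb_M and 8.99, 9.86 and 9.54 CPM in 1Rb_P (−0.89 ± 0.10 SE, edgeR adjusted p = 8.78e-10). Here it was 1Rb_P that stood apart: averaged over the stretch, the 3Rb libraries held 5.68 to 5.88 CPM and B6 5.50 CPM, close to 1Rb_M. The inputs held 7.06 (titled 1Rb_M), 6.86 (Cg) and 7.80 CPM (B6), and H3.3 8.01 to 8.52 CPM in 1Rb and 7.76 to 8.05 CPM in Cg. None of these libraries had the 1Rb_P level, but the input titled 1Rb_M is the only one whose strain label names the 1Rb_P cross. Elsewhere that input differed from B6 in the direction of 1Rb_M γH2AX. It held 33.6 against 19.3 CPM at chr7:143600001-143700000, and a median of 4.74 against 8.17 CPM in the 115 X windows called lower. Whether any input stands for the 1Rb_P cross is therefore not settled. How similar the copies are was not measured, and the treatment of multiply mapping reads is not given. The counts may therefore not be specific to a single copy.

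Losses also lay in 2 other clusters of copied genes. At chr14:69250001-69650000, which includes Entpd4 and Entpd4b, genes of Golgi nucleotide hydrolases, 8 lower windows averaged 7.70, 7.02 and 7.40 CPM in 1Rb_M and 10.3, 10.6 and 10.04 CPM in 1Rb_P, with 6.27 to 6.38 CPM in 3Rb and 6.22 CPM in B6. Its window over LOC115488278 and Entpd4b stood at −0.55 ± 0.10 (edgeR adjusted p = 0.000165). As at Plac9a, the 1Rb_P libraries held more than 1Rb_M, 3Rb and B6 alike. At chr4:41850001-42300000, which holds the chemokine genes Ccl21b and Ccl21d, 8 lower windows averaged 8.48, 7.63 and 9.37 CPM in 1Rb_M and 11.9, 11.6 and 11.3 CPM in 1Rb_P. The 3Rb libraries held 7.18 to 7.35 CPM there and B6 10.2 CPM, so B6 lay between the crosses. There the inputs differed too, with 9.65 (titled 1Rb_M), 11.1 (Cg) and 12.1 CPM (B6). H3.3 did so as well, with 13.8 to 15.2 CPM in 1Rb and 17.3 to 18.8 CPM in Cg. The nearby window of Gm10591, of the same chromosome, held 7.71, 7.60 and 8.58 CPM in 1Rb_M and 11.6, 12.03 and 11.3 CPM in 1Rb_P (−0.55 ± 0.10, edgeR adjusted p = 0.000118).

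A further 6 named losses each overlapped 1 gene, several of which encode neuronal proteins. Dgkb on 12, a diacylglycerol kinase gene, held 14.3, 14.9 and 15.2 CPM in 1Rb_M and 18.1, 19.4 and 19.7 CPM in 1Rb_P (−0.36 ± 0.07, edgeR adjusted p = 0.00191). Mdga2 on 12, which encodes a synaptic membrane protein, stood at −0.32 ± 0.06, and Klhl1 on 14, an actin-binding kelch protein gene, at −0.34 ± 0.07. On 16 the axon guidance receptor gene Robo2 stood at −0.34 ± 0.07 and the ephrin receptor gene Epha6 at −0.31 ± 0.06, and Cnbd1 on 4 stood at −0.35 ± 0.07 (edgeR adjusted p from 0.00126 to 0.00239 for these 5). The inputs titled 1Rb_M, Cg and B6 held 15.5, 17.0 and 15.6 CPM at Robo2 and 15.9, 14.99 and 14.2 CPM at Epha6.

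**Figure D5:**
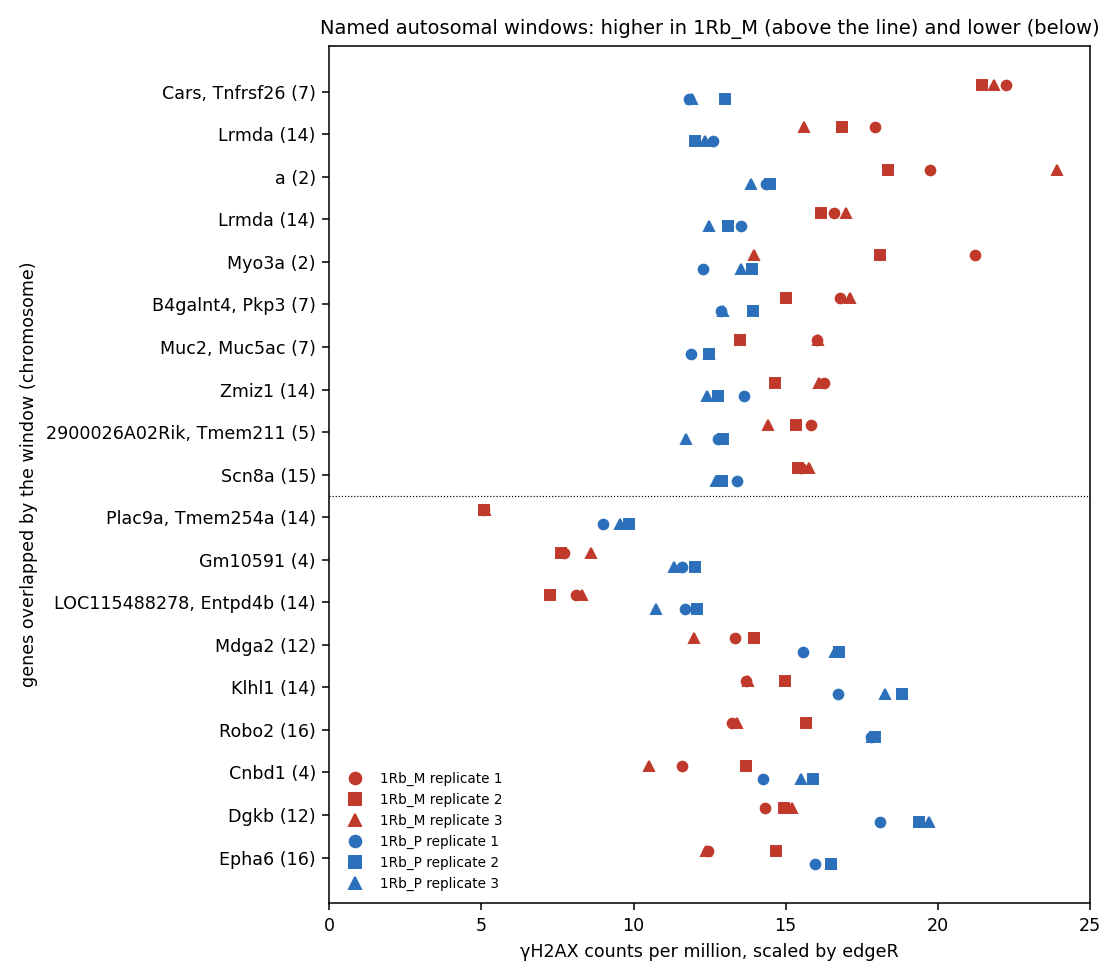
γH2AX CPM (scaled by edgeR) in each 1Rb_M and 1Rb_P library for 19 named autosomal windows, ordered by adjusted p within each direction. The groups lie apart by the naming rule, and the gaps are wide at Cars and Tnfrsf26 (21.4 to 22.2 in 1Rb_M, 11.8 to 13.01 in 1Rb_P) and at Plac9a and Tmem254a (5.07 to 5.10 in 1Rb_M, 8.99 to 9.86 in 1Rb_P).

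The sequence before the start of 4 genes in these windows is printed to show what the reference genome holds there, 2 from gains and 2 from the largest loss. Each is the 250 bases before the gene's start from RefSeq (GRCm38.p6, the assembly of mm10), in lower case with each CG dinucleotide in capitals. The window of a lies at chr2:155000001-155050000, that of B4galnt4 at chr7:141050001-141100000, and that of Plac9a and Tmem254a at chr14:25900001-25950000.
a (chr2:155013320-155013569, plus strand): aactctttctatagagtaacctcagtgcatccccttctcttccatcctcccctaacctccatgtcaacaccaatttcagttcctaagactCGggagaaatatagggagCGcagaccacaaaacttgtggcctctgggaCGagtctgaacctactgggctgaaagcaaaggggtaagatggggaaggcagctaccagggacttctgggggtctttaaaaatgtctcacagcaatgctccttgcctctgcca
B4galnt4 (chr7:141060728-141060977, plus strand): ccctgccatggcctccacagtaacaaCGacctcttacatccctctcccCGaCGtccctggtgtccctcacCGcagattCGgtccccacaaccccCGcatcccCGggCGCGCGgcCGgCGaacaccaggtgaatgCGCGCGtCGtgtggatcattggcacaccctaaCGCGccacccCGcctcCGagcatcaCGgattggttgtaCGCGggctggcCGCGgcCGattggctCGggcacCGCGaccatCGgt
Plac9a (chr14:25902894-25903143, minus strand): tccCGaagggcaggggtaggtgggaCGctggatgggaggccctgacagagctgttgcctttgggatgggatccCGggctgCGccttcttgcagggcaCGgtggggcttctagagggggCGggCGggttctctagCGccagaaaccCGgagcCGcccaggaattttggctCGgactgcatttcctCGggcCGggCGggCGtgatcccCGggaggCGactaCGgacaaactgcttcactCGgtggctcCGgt
Tmem254a (chr14:25927673-25927922, minus strand): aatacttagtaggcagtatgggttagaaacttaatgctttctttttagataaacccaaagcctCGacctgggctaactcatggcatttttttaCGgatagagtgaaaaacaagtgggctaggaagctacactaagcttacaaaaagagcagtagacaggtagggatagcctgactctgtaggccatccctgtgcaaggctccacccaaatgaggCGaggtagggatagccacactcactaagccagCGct

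The search was for the letters CG, which read the same on both strands and cannot overlap one another. B4galnt4 had 30 and Plac9a 20, with a G+C content of 67.6 and 66.8%, while a had 3 and Tmem254a 4, and the G+C content of Tmem254a was 46.0%. Rich and poor promoters thus stood in gained and in lost windows. Over all autosomal promoters the median was 6, and 92.4% held at least 1. A 50 kb window does not place its signal at a promoter.

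The gene lists, which cover 1912 autosomal windows tested, held 9 windows higher and 6 lower in 1Rb_M, beside 0.267% higher and 1.42% lower over all autosomal windows. Among the 69 windows of the γH2AX pathway, the genes that lay, read and bind the mark, such as H2ax, Atr, Mdc1 and Brca1, no window passed and the median difference was −0.04. At an unadjusted p under 0.05 there were 6. The 116 windows of meiotic prophase genes had 1 lower window and a median of −0.01. It lay in Mei4, whose product is needed for SPO11 to make breaks, and held 15.9, 16.9 and 16.2 CPM in 1Rb_M and 19.5, 19.7 and 20.6 CPM in 1Rb_P (−0.28 ± 0.08, edgeR adjusted p = 0.0484). The list had no lower call with library totals, with TMM from autosomal windows, with a replicate block, or without 1Rb_M replicate 1 or any 1 library of 1Rb_P, and it had 5 without 1Rb_M replicate 2 and 15 without replicate 3. The 3 other Mei4 windows with the smallest p, singled out after their values were seen, stood at −0.25, −0.25 and −0.20 with adjusted p from 0.0724 to 0.0999.

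Among germ cell and somatic genes few windows passed, as few would in lists of this size at the 1.76% called over all windows tested. None of the 46 spermatid windows passed (median 0.02), nor any of the 41 Sertoli windows (0.05), the 30 of Leydig, peritubular and blood cells (0.03) or the 27 housekeeping windows (−0.01). At an unadjusted p under 0.05 these 4 lists had 3, 7, 4 and 0 windows. Of the 43 windows of spermatogonia, 1 was higher in 1Rb_M: that of Utf1, a chromatin protein of undifferentiated spermatogonia, on distal 7. It held 16.7, 12.9 and 17.3 CPM in 1Rb_M and 13.6, 13.7 and 12.03 CPM in 1Rb_P (0.25 ± 0.07, edgeR adjusted p = 0.0383), and the groups overlapped through 1Rb_M replicate 2. The list had no call with 9 libraries in the fit, with DESeq2, or without 1Rb_M replicate 1 or 1Rb_P replicate 3.

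Imprinted genes, expressed from the copy of 1 parent, held 6 higher and no lower window of 139, with a median of 0.05. The higher share was 4.32%, against 0.267% over all autosomal windows tested. Without 1Rb_M replicate 2 or 3 there were 23 or 18 higher windows, and without 1Rb_M replicate 1, 1Rb_P replicate 2 or 1Rb_P replicate 3 there were 2. Of the 6, 5 lay on chromosome 7, where the list has 49 windows with a median of 0.08, against 0.06 over all 2845 windows of 7, of which 1.05% were called higher. The other autosomes had 1 higher window of 90 in the list, against 98 of all their 45171 windows, with a median of 0.04 against −0.0042 over all. The list's gains include the Tnfrsf22 and Tnfrsf23 windows described above. Those windows and that of Kcnq1 lie in the stretch of 7 from 140 to 146 Mb, where 17 of all 107 windows were higher in 1Rb_M. The part of this position in the list's count was not tested. Kcnq1, a potassium channel gene of the same cluster, had 15.7, 13.1 and 15.1 CPM in 1Rb_M and 12.6, 12.2 and 11.5 CPM in 1Rb_P (0.27 ± 0.07, edgeR adjusted p = 0.0233). Dio3 on 12, which encodes the deiodinase that inactivates thyroid hormone, had 15.9, 14.2 and 15.4 CPM in 1Rb_M and 12.8, 13.1 and 12.4 CPM in 1Rb_P (0.25 ± 0.06, edgeR adjusted p = 0.0235). H19, the maternally expressed noncoding RNA, stood at 0.25 ± 0.07 (edgeR adjusted p = 0.0553), and the window of Igf2 and Ins2 at 0.21 ± 0.07 (edgeR adjusted p = 0.133). These counts do not separate the parental alleles.

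Receptor and zinc finger families held few calls with all 6 libraries. The share called was 0.516% for olfactory receptors, 0.306% for vomeronasal receptors and 0.726% for zinc finger genes, against 1.76% over all windows tested. Olfactory receptors had 1 higher and 2 lower of 581 windows (median 0.02) and zinc finger genes 1 higher and 3 lower of 551 (median 0.01). The zinc finger window with the largest called difference was Zfp932 on 5, with 8.63, 10.1 and 9.31 CPM in 1Rb_M and 12.5, 12.4 and 12.8 CPM in 1Rb_P (−0.43 ± 0.09, edgeR adjusted p = 0.00348). Its inputs differed, with 10.3 CPM (titled 1Rb_M), 5.68 CPM (Cg) and 10.5 CPM (B6). Vomeronasal receptors had no higher and 1 lower window of 327 (median 0.06), that of Vmn2r121 on X. These counts rested on 1Rb_M replicate 3: without it, 116 olfactory, 138 vomeronasal and 53 zinc finger windows were called higher, and 8, 2 and 35 lower.

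On the sex chromosomes the level followed the libraries more than the crosses. X was enriched at 2.18, 2.18 and 2.97 in 1Rb_M and at 2.93, 2.86 and 2.84 in 1Rb_P on the log2 scale, and Y at 2.05, 2.05 and 2.78 in 1Rb_M and at 2.77, 2.65 and 2.63 in 1Rb_P (exact permutation p = 0.4 for each). On both, 1Rb_M replicates 1 and 2 lay below all 1Rb_P libraries and replicate 3 above them. The difference of the means was −0.43 on X and −0.39 on Y, and without 1Rb_M replicate 3 it was −0.69 and −0.63. Among the lists, the 80 windows of single-copy X genes had a median of −0.39 and no call, with 1 at an unadjusted p under 0.05, and without 1Rb_M replicate 3 all 80 were called lower. The Y short-arm and long-arm lists, of 20 and 6 windows, had medians of −0.34 and −0.36 and no call, with 0 at an unadjusted p under 0.05, and without 1Rb_M replicate 3 there were 19 and 6 lower.

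Against this background, 115 of 3311 X windows (3.47%) were lower in 1Rb_M in the fit of all 6 libraries and none higher, with a median of −1.33, or 0.40-fold. They were local: of the 111 with a log2 difference beyond 0.5, 60 lay at chrX:122500001-127250000 and 41 at chrX:147800001-150100000. The longest stretch, chrX:147800001-149600000 with 35 windows, averaged 19.2, 19.005 and 31.9 CPM in 1Rb_M and 61.1, 57.9 and 56.8 CPM in 1Rb_P. The next, chrX:123050001-124700000 with 32 windows, averaged 13.4, 13.9 and 22.0 CPM in 1Rb_M and 45.7, 43.6 and 43.8 CPM in 1Rb_P. Here 1Rb_M replicate 3 lay with its own group, below all 1Rb_P libraries.

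The input titled 1Rb_M and H3.3 of 1Rb testes were low in the same X windows, while the other inputs and H3.3 of Cg testes were nearer to their level elsewhere on X. Over the 115 windows, the median was 4.74 CPM in the input titled 1Rb_M, 8.58 CPM in Cg and 8.17 CPM in B6. H3.3 had 7.81 to 8.35 CPM in 1Rb and 16.7 to 17.5 CPM in Cg. In the X windows that were not called, the inputs had 9.39, 9.41 and 9.43 CPM and H3.3 16.4 to 17.0 CPM in 1Rb and 17.6 to 18.8 CPM in Cg. A difference in these windows was thus also present between inputs and between H3.3 libraries, which the comparison did not use.

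Of the 76 windows of multicopy X and related genes, 3 passed, all lower (3.95%), close to the 3.47% over all X windows. Without 1Rb_M replicate 3 the count was 67. Ott, an ovary and testis transcribed gene, had a window with 17.4, 16.7 and 28.1 CPM in 1Rb_M and 62.8, 60.3 and 60.1 CPM in 1Rb_P (−1.56 ± 0.27, edgeR adjusted p = 0.000116). Srsx stood at −1.45 ± 0.26 (edgeR adjusted p = 0.000273). The Vmn2r121 window held 9.41, 10.6 and 10.9 CPM in 1Rb_M and 55.9, 53.6 and 53.0 CPM in 1Rb_P (−2.40 ± 0.24, edgeR adjusted p = 2.77e-12), with inputs of 8.31 (titled 1Rb_M), 15.3 (Cg) and 13.6 CPM (B6). There all 3 1Rb_M libraries were alike. The window named first on X, at chrX:125100001-125150000 with no protein-coding gene, held 6.81, 6.595 and 10.4 CPM in 1Rb_M and 24.6, 24.2 and 26.5 CPM in 1Rb_P (−1.66 ± 0.09, edgeR adjusted p = 5.11e-27). The other 2 named X windows were lower, at −1.46 ± 0.09 with no gene and at −1.07 ± 0.27 over Gm1993.

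On Y, 9 of 1791 windows (0.503%) were lower in 1Rb_M and none higher. The groups overlapped in 7 of the 9. The window named on Y, chrY:36600001-36650000, held 15.5, 15.9 and 24.2 CPM in 1Rb_M and 26.6, 24.4 and 25.1 CPM in 1Rb_P (−0.45 ± 0.11, edgeR adjusted p = 0.0184), so that 1Rb_M replicate 3 lay just below 1Rb_P. Its inputs held 4.32 (titled 1Rb_M), 4.78 (Cg) and 4.13 CPM (B6).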

How the data were processed

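Chromatin immunoprecipitates and inputs of whole testis were sequenced by the authors, who deposited raw read counts per 50 kb window of mm10 (54520 windows on 21 chromosomes). The submitters' processing notes name BWA and CASAVA 1.8; filters and the treatment of duplicate or multiply mapping reads are not given in the sources used here. Groups came from the sample titles. The members, gene lists and tests were chosen with earlier results of these data known.

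The 53118 windows whose count averaged 10 or more in the 6 libraries were tested with edgeR 4.0.16 in R 4.3.3, by the quasi-likelihood test after TMM scaling. P-values were adjusted by Benjamini-Hochberg over these windows, and a call needed an adjusted p under 0.05. Log2 differences are 1Rb_M over 1Rb_P, with their SE. In counts simulated for this comparison over the 53118 windows, 93 of 100 windows changed 1.5-fold and 14 of 100 changed 1.25-fold were recovered, with 2 false calls. Small differences were thus under-called in the simulation. It gave all libraries the same spread and held none that stood apart as 1Rb_M replicate 3 does. Its recovery and its false calls may therefore not hold for the real counts. Region enrichment is the log2 of summed counts over the pooled inputs, set against windows beyond 13 Mb of 16 autosomes. Its groups were compared by exact permutation (two-sided, scipy 1.17.1) with adjustment over 9 regions. Medians over windows had 0.5 added to each count. CPM of libraries outside the fit are relative to the library's total. Gene positions and promoters are from RefSeq GRCm38.p6 (21883 protein-coding genes), and a window names the genes it overlaps.

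For named windows, calls of 1 direction with at most 1 window between them were merged, and the 10 autosomal regions per direction with the smallest adjusted p were kept, no more than 3 on a chromosome, regions with a gene first. The groups had to lie apart, and pooled input had to be between 0.2 and 5 times the median. On X and Y, 3 regions per direction were named in this way, and of each gene list up to 4 called windows. The result of 1 chosen window is not reported here. The lists hold genes of the γH2AX pathway, meiotic prophase, spermatids, spermatogonia, Sertoli cells, Leydig with peritubular and blood cells, imprinting, housekeeping, olfactory and vomeronasal reception, zinc fingers, X genes in many or in 1 copy, and both arms of Y. Alternatives were library totals, autosomal TMM, 9 libraries with 3Rb, a replicate block, no filter, 1503 windows of unusual input left out, DESeq2 1.42.0, each library left out, and other inputs, reference chromosomes, window medians and lengths for regions.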

Additional observations from a re-analysis of the deposited data

How the results depend on the processing

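Counts of calls moved with the scaling, the tool, the replicate block and single libraries. Library totals in place of TMM left 27 autosomal windows lower in 1Rb_M, 4 lower on Y and 0 lower list windows. With 9 libraries in the fit there were 441 lower on autosomes, 3 lower on Y and 3 chromosomes called. DESeq2 gave 85 higher and 286 lower on autosomes, 0 lower on Y, and 5 higher and 2 lower list windows. Without windows of unusual input, 5 were lower on Y and 3 of the list windows. Of the 128 higher and 681 lower autosomal windows, 73 and 27 kept their call with library totals, and 78 and 279 with DESeq2. The cause was not tested.

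Leaving out 1 library in turn gave 8 to 4572 higher and 35 to 2637 lower autosomal windows, 0 to 3 higher and 71 to 3278 lower on X, 0 to 1787 lower on Y, 2 to 348 higher and 0 to 39 lower list windows, and 0 to 12 chromosomes. On autosomes the counts higher and lower were 8 and 35 without 1Rb_M replicate 1, 1289 and 2637 without 1Rb_M replicate 2, 4572 and 2360 without 1Rb_M replicate 3, 23 and 162 without 1Rb_P replicate 2, and 19 and 130 without 1Rb_P replicate 3. Of the 24 windows chosen by the naming rule, 11 kept their call without 1Rb_M replicate 1 and 19 to 24 without any other single library, and none changed sign. The Tnfrsf26, Lrmda and Plac9a windows and 2 of the X windows kept their call under all 13 settings.

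The small difference over the rest of 8 changed sign with all 17 autosomes as reference (−0.0032) and ran from −0.027 to 0.0246 over the single libraries left out. The other 8 region differences kept their sign in every setting run. Same-numbered replicates deviated with correlations of 0.16, −0.25 and −0.33, and not every library matched its own number best. Deviations from a group's mean are tied to one another within the group, so they cannot decide whether the numbers pair the samples. With a replicate block there were 60 higher and 452 lower autosomal windows, 14 lower on Y and 3 lower list windows.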

Other observations

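In 1 autosomal window without a gene, at chr1:24600001-24650000, γH2AX was 52.5, 31.2 and 24.2 CPM in 1Rb_M and 17.1, 16.1 and 19.9 CPM in 1Rb_P (median log2 difference 1.02), and the inputs held 75.8 to 119 CPM. It lies outside the rule for named windows and was chosen after its values were seen. At chr4:156350001-156400000, also chosen so and without a gene, γH2AX was 9.10, 8.15 and 10.2 CPM in 1Rb_M and 15.78, 13.997 and 12.7 CPM in 1Rb_P, with 37.4 CPM in B6 and inputs of 7.47 (titled 1Rb_M), 9.79 (Cg) and 10.9 CPM (B6). In the Y window at chrY:4100001-4150000 the 3Rb libraries held 246 to 261 CPM, against 10.3 to 14.5 CPM in 1Rb_M and 13.1 to 25.4 CPM in 1Rb_P, and the inputs held 6.72 (titled 1Rb_M), 6.57 (Cg) and 53.1 CPM (B6).

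The level of gene-dense autosomal windows against gene-free ones varied within both crosses. The log2 ratio of enrichment between windows with 3 or more genes and windows with none was 0.06, −0.08 and 0.20 in 1Rb_M and 0.08, 0.09 and −0.03 in 1Rb_P, so the groups overlapped. It was −0.13, −0.07 and −0.13 in 3Rb and 0.05 in B6. Between the inputs it was 0.04 (titled 1Rb_M), −0.07 (Cg) and 0.08 (B6), each over the others.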
